A study of Drosophila melanogaster with 4 samples.

Results

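Cytochrome P450 genes were examined in RNA labelled as coming from the heads of male Drosophila melanogaster that had fasted for 24 h. Genes were taken by their symbol in the platform annotation, Cyp followed by a digit, leaving out Cyp4g1 and Cyp4g15. That rule found 81 of 11981 genes. Cyp1 and Cyp40 are cyclophilins, a family of peptidyl-prolyl isomerases that shares only the prefix, so the 79 genes whose symbol also carries a subfamily letter are described here as the P450 family. Of 4 Affymetrix arrays, 1 each held the WT control, TORC mutant, rescue control and TORC neuronal rescue. TORC is the CREB coactivator now called Crtc. The labels give no allele, strain, driver, age or number of flies for any group, nor whether the rescue control carries the mutation.

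P450s are heme enzymes that insert an oxygen atom into small molecules. In insects they clear plant toxins and insecticides, make and break down the moulting hormone ecdysone, and process fatty acids. Most sit in the endoplasmic reticulum and take electrons from cytochrome P450 reductase, while members of the mitochondrial clan, among them the Cyp12 family, take them from ferredoxin. Families are numbered and grouped in 4 clans. Of the 79 genes, 37 belonged to the CYP3 clan (Cyp6, Cyp9, Cyp28, Cyp308 to Cyp310 and Cyp317), 30 to the CYP4 clan (Cyp4, Cyp311 to Cyp313, Cyp316 and Cyp318), 8 to the mitochondrial clan (Cyp12, Cyp49 and Cyp301) and 4 to the CYP2 clan (Cyp18 and Cyp303 to Cyp305).

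Values are probe set signals on a linear scale. Where 4 signals stand in a row, their order is WT control, mutant, rescue control, neuronal rescue. Signals below 14 were raised to 14 before any ratio, so a fold against such a signal is a lower bound. A gene was called when its signals on a pair of arrays differed by 2-fold or more. With 1 array per group there is no replicate error and no test, and a call is a difference in size between single arrays. The signal of a probe set also depends on its probes, so signals are compared between arrays and not between genes. As a scale for disagreement between probe sets, the log2 ratio of a single probe set had a robust SD of 0.34 in each main comparison. It was estimated from the differences between paired probe sets of the same gene, over 414 genes, with signals above 14 on all 4 arrays. Differences between samples or arrays cancel in it, so it does not measure the error of a ratio between arrays, nor that of dim genes.

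Crtc had a signal of 203 in WT control heads, 3.8 in mutant heads, 6.7 in rescue control heads and 37.4 in neuronal rescue heads. Neuronal and glial markers were above 14 on every array (4 of 4 and 3 of 3 measured), as were both measured photoreceptor markers. Markers of other tissues differed between arrays. Testis, accessory gland and gut lie outside the head, yet their markers were bright on some arrays. Heads is therefore used here as the word of the labels, and which tissue gave a P450 signal was not tested. The summed signal of 6 testis genes was 4083 in WT control heads, 27.7 in mutant heads, 80.9 in rescue control heads and 8008 in neuronal rescue heads, with 6, 0, 4 and 6 of them above 14. For 7 accessory gland and ejaculatory tract genes it was 11310, 36.8, 40.2 and 12258, with 7, 1, 1 and 7 above 14. It was 6261, 84.8, 1674 and 4170 for 5 gut genes, and 6326, 106, 13719 and 1554 for 3 flight muscle genes. For 6 fat body genes it was 12488, 25724, 19550 and 20279, and 5 or 6 of them were above 14 on each array. That order changed without Lsp2: the sum, an addition made after the data were seen, was then 11349, 16960, 10758 and 14768, lowest in the rescue control. The yolk protein gene Yp1, one of the 6, is female-biased, while the samples are labelled male. It was at 17.6 in rescue control heads and between 3235 and 4617 on the other arrays. It thus added almost nothing to the rescue control sums, and the order of the sums depended on single genes. Among the 3 oenocyte markers, FASN2 had 52.0, 0.5, 3.1 and 98.7 and Desat1 had 4169, 4089, 3255 and 3574, while Cyp4g1 was 74.9-fold lower in the mutant than its WT control and 12.1-fold higher in the neuronal rescue than its rescue control. Of 3 measured Malpighian tubule markers, all 3 were above 14 in the neuronal rescue and 2 on each of the other arrays. Probe sets for Bacillus transcripts, which serve as added controls on this kind of array, had a geometric mean signal of 69.8 and 69.4 in the WT and mutant samples, and 325 and 244 in the other pair, so each main comparison lies within one such pair and the other pairings cross them.

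Most of the family was measurable in these samples. Signals were above 14 on all 4 arrays for 59 of the 79 genes (74.7%), as for 62.4% of all genes. Another 3 genes were above it on 3 arrays (Cyp304a1, Cyp6a19 and Cyp4ac2), 5 on 2 arrays (Cyp6a18, Cyp28c1, Cyp312a1, Cyp313a4 and Cyp318a1), 2 on 1 array (Cyp6t3 and Cyp12d1-d) and 10 on none. The Cyp313 family held 4 of these 10 genes (Cyp313a2, Cyp313a3, Cyp313a5 and Cyp313b1). The others were Cyp303a1, which is needed for development of sensory bristles, and Cyp6a16, Cyp6g2, Cyp308a1, Cyp310a1 and Cyp316a1. Among the 59 genes above 14 on all arrays, the highest and lowest of the 4 signals lay within 1.5-fold of each other for 18, between 1.5-fold and 2-fold for 25, and 2-fold or more apart for 16. Cyp4c3 was one of the flattest, with 46.6 in WT control heads, 43.3 in mutant heads, 44.7 in rescue control heads and 43.4 in neuronal rescue heads. Cyp6a13 and Cyp6u1 had a highest to lowest ratio of 1.13.

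A rule picked the 10 members whose probe sets had the highest mean signals for a full description, without reading their order as one of transcript amount. They were Cyp4e2, Cyp4e3, Cyp6a2, Cyp6d5, Cyp6g1, Cyp9b2, Cyp9f2, Cyp28a5, Cyp28d1 and Cyp313a1. Cyp4e3, Cyp6a2, Cyp6g1 and Cyp28d1 are described with their families, and the remaining 6 stayed within 1.51-fold across the 4 arrays. Cyp313a1 had 2964, 2713, 1968 and 2725, lowest in the rescue control, and was the one Cyp313 gene above 14 on every array. Cyp4e2 had 1131, 1699, 1453 and 1171, highest in the mutant. Cyp6d5 had 2416, 2215, 2132 and 1808, and Cyp9b2 had 744, 944, 786 and 773. Cyp9f2 with 1522, 1258, 1149.8 and 1173, and Cyp28a5 with 1405, 1165, 1056 and 1171, were both highest in the WT control, by less than 2-fold.

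The TORC mutant was set against the WT control to ask how P450 transcripts differ when TORC is lost. In the mutant, 9 of the 79 genes were at least 2-fold higher, and 1.74% of all genes passed that call. Lower by at least 2-fold were 6 of 79, where 11.5% of all genes were. The higher genes were Cyp6a2, Cyp6a8, Cyp6a17, Cyp6d2 and Cyp6t1 of the CYP3 clan, Cyp4e3, Cyp4ac2 and Cyp4ac3 of the CYP4 clan and mitochondrial Cyp12a4. The lower ones were Cyp6a18, Cyp6a23, Cyp4p1, Cyp4aa1, Cyp312a1 and mitochondrial Cyp12c1. The median log2 ratio was 0.18 over the 68 genes above 14 on at least 1 of the arrays compared, and -0.03 over all 9709 such genes. Much of the share of lower genes overall came from genes at the floor on an array. Among genes above 14 on all 4 arrays, 8 of 59 members were higher, against 2.47% of 7480 genes, and 4 of 59 lower, against 3.1%. With this restriction the median log2 ratio was 0.19 over members and 0.07 over all genes. With quantile normalization the counts over all members were 14 higher and 4 lower, and the shares of all genes were 4.95% and 8.93%.

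**Figure D1:**
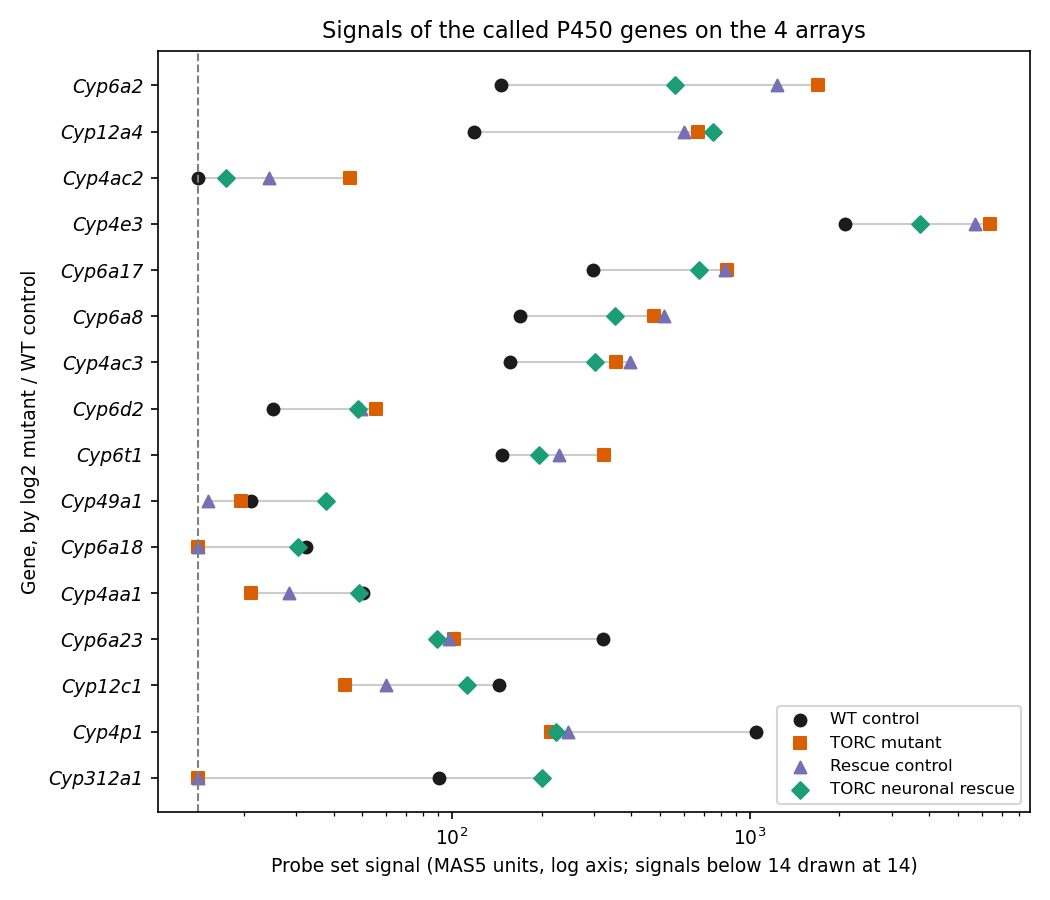
Probe set signals (MAS5 units, log axis) of the 16 P450 genes called in either main comparison, with 1 symbol for each of the 4 arrays and signals below 14 drawn at 14. The WT control lies apart from the other arrays for genes such as Cyp12a4 (118 against 600 to 754) and Cyp4p1 (1051 against 216 to 245), while Cyp312a1 is at the floor in the mutant and the rescue control.

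The Cyp6 family holds enzymes known for insecticide breakdown, and 18 of its 23 genes were above 14 on all arrays. Cyp6a2, an enzyme that metabolises insecticides and is induced by phenobarbital, had a signal of 146 in WT control heads, 1696 in mutant heads, 1230 in rescue control heads and 562 in neuronal rescue heads. The mutant exceeded the WT control, the lowest of the 4 signals, 11.6-fold. Cyp6a8, whose transcript is raised in some DDT-resistant strains, had 169, 475, 515 and 353 in the same order, and was 2.82-fold higher in the mutant.

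Cyp6a17, which acts in the brain in temperature preference, had 297 in WT control heads, 841 in mutant heads, 823 in rescue control heads and 676 in neuronal rescue heads. It was 2.83-fold higher in the mutant, and the other arrays lay close to the mutant. Cyp6d2 had 25.1, 55.5, 49.5 and 48.5, and Cyp6t1 had 148, 325, 228 and 196, which made them 2.21-fold and 2.20-fold higher in the mutant. Both were lowest in the WT control. Raising the floor to 50 left Cyp6d2 with a log2 ratio of 0.15, since most of its signals then lay at the floor.

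Against these, Cyp6a23 had 322 in WT control heads, 101 in mutant heads, 97.9 in rescue control heads and 89.0 in neuronal rescue heads, and was 3.18-fold lower in the mutant. Its WT control signal stood above all the others, which lay within 1.14-fold of one another. Cyp6a18 had 32.4, 0.5, 9.5 and 30.4, at least 2.31-fold less in the mutant. It was above the floor only in the WT control and the neuronal rescue, the arrays with bright testis, accessory gland and FASN2 signals, and the part of those tissues in this difference was not tested. With quantile normalization its log2 ratio was -0.82, short of the call. Cyp6g1, the gene of DDT and neonicotinoid resistance, had 2045, 3534, 3011 and 3231. It was lowest in the WT control, but its 1.73-fold difference in the mutant was not called. Cyp6a20, which affects male aggression, had 914, 622, 674 and 593 and was 1.47-fold lower in the mutant, also not called. Cyp6w1, an enzyme with DDT-metabolising activity, had 458, 572, 573 and 525. None of the 5 Cyp9 and 4 Cyp28 genes was called in a main comparison, too few genes to set against the shares of all genes. Cyp28d1, which contributes to nicotine resistance, had 2986, 2277, 2485 and 1970, and the Cyp9 log2 ratios lay between -0.28 and 0.76.

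In the Cyp4 family, which includes fatty acid hydroxylases, 3 of 20 genes were higher in the mutant and 2 lower. Of all genes, 1.74% were higher and 11.5% lower. Cyp4e3 had 2092 in WT control heads, 6410.4 in mutant heads, 5684 in rescue control heads and 3727 in neuronal rescue heads, which was 3.06-fold higher in the mutant. Cyp4ac3 had 157, 357, 395 and 301.3 and was 2.28-fold higher. Both genes were lowest in the WT control. Cyp4ac2 was dim, with 13.5, 45.5, 24.3 and 17.4, and was at least 3.25-fold higher in the mutant. Its log2 ratio fell to 0.70, under the call, with the floor at 28.

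Cyp4p1 had the largest fall with both signals above 14, from 1051 in the WT control to 216 in the mutant, 4.87-fold. The rescue control (245) and the neuronal rescue (224) were close to the mutant. Cyp4aa1 had 50.1, 21.2, 28.4 and 48.8, and was 2.36-fold lower in the mutant, with a log2 ratio of -0.49 under quantile normalization and -0.84 with the floor at 28, both short of the call. The WT control and the neuronal rescue gave its highest signals. Cyp4d21, a male-biased gene of the fat body around the brain that is linked to courtship, had 546, 857, 597 and 509, and its 1.57-fold difference was not called. Of the 10 genes in the other CYP4 clan families, Cyp312a1 alone was called. It had 90.1 in WT control heads, 7.5 in mutant heads, 1.1 in rescue control heads and 200.3 in neuronal rescue heads, so that the mutant lay at least 6.44-fold below the WT control.

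The mitochondrial clan was almost wholly measurable, with 7 of 8 genes above 14 on every array, and its Cyp12 genes went in different directions. Cyp12a4, whose overexpression gives resistance to the insecticide lufenuron, had 118 in WT control heads, 667 in mutant heads, 599.5 in rescue control heads and 754 in neuronal rescue heads. It was 5.64-fold higher in the mutant, and the WT control stood below all 3 other arrays. Cyp12c1 had 144, 43.8, 60.1 and 112, and was 3.29-fold lower in the mutant, with its higher signals in the WT control and the neuronal rescue. Cyp12a5 had 152, 113, 127 and 188, and Cyp12b2 had 134, 185, 153 and 109. Neither was called, and they differed from the WT control in opposite directions.

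Cyp12e1 had 145, 142, 116 and 112, with a log2 ratio of -0.03 in the mutant. A second probe set of Cyp12e1 had a ratio of -0.70, also short of 2-fold. Cyp12d1-d had 14.3 in WT control heads and was below 14 on the other 3 arrays. Its near-identical copy shares a probe set that the annotation assigns to both genes, and that probe set was left unnamed. Outside Cyp12, Cyp49a1 had 21.1, 19.6, 15.2 and 37.8. Cyp301a1, which is needed to form the adult cuticle, had 14.3, 16.2, 20.8 and 14.9, so both were dim.

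None of the 4 CYP2 clan genes was called in a main comparison, again too few to set against the shares of all genes. Cyp18a1, which inactivates ecdysteroids, had 116 in WT control heads, 153 in mutant heads, 194 in rescue control heads and 104 in neuronal rescue heads. Its second probe set had 77.9, 62.7, 55.3 and 44.9, so the probe sets gave log2 ratios of 0.40 and -0.31 for the mutant against the WT control and did not settle a direction. Cyp305a1 had 243, 399, 320 and 294, and was 1.64-fold higher in the mutant. Cyp304a1 had 6.6, 20.7, 23.7 and 37.4, below the floor in the WT control alone. In the CYP3 clan, Cyp6t3, an enzyme used in ecdysone production in the larval ring gland, had 1.8, 7.5, 19.4 and 7.2.

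**Figure D2:**
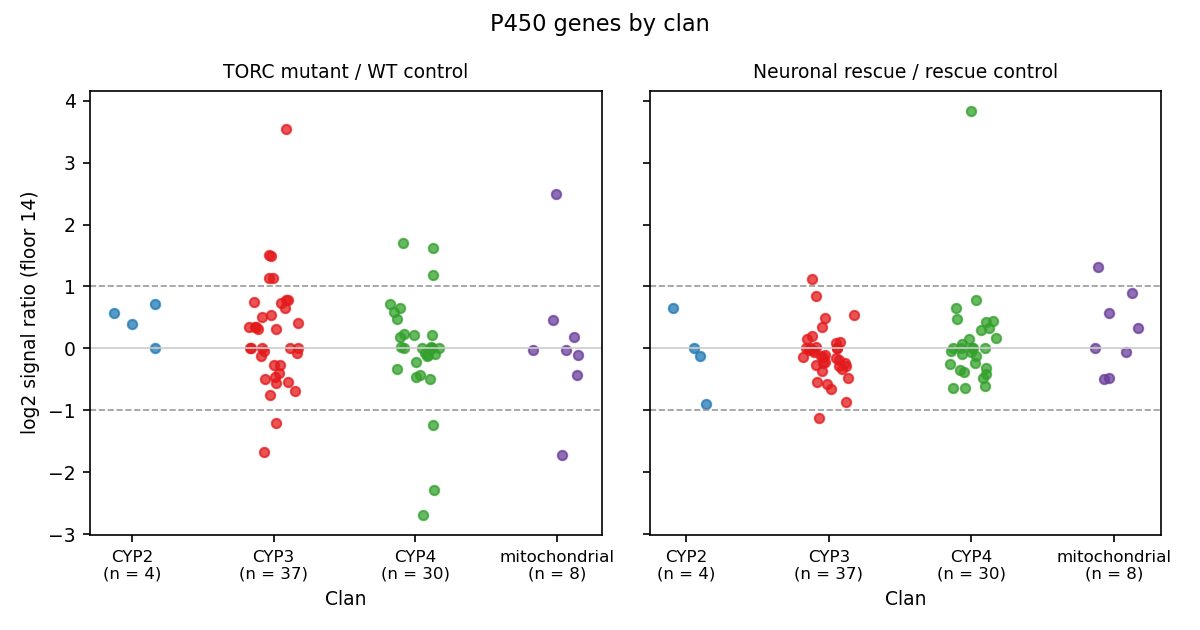
log2 signal ratios of all 79 P450 genes by clan, in the mutant against the WT control (left) and in the neuronal rescue against the rescue control (right), with 1 point per gene and dashed lines at the 2-fold calls. Genes beyond the lines number 15 on the left and 4 on the right, and genes at the floor on both arrays lie at 0.

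The place of the WT control among the arrays was then described, with a criterion chosen after the values had been seen. The WT control was at least 2-fold below each of the other 3 arrays for 4 of the 79 genes, Cyp6a2, Cyp6a8, Cyp6a17 and Cyp12a4, a pattern that 0.543% of all genes showed. It was at least 2-fold above each of them for 2 of 79, Cyp4p1 and Cyp6a23, as for 0.993% of all genes. Among the other 3 arrays, these 6 genes ranged over 1.13-fold for Cyp4p1, 1.14-fold for Cyp6a23, 1.24-fold for Cyp6a17, 1.26-fold for Cyp12a4 and 1.46-fold for Cyp6a8. Cyp6a2 was the exception, with a 3.02-fold range between the neuronal rescue and the mutant. The criterion itself fixes that all 3 other arrays differ from the WT control for these genes, and these comparisons share that array. Of the 6 fat body markers, Lsp2 (1139 in WT control heads, and 8765, 8793 and 5512 in the mutant, rescue control and neuronal rescue), Tsf1 (2237, 5419, 4897 and 3700) and fit (69.1, 264.5, 151 and 99.7) were also lowest in the WT control. The others were not: Yp1 and apolpp (5806, 6643, 5677 and 6432) were lowest in the rescue control, and Fbp1 was below 14 in both the WT control and the neuronal rescue. Of the 5 gut markers, mag (736, 59.0, 104.5 and 105), betaTry (1915, 1.5, 539.5 and 488) and alphaTry (2347, 2.5, 541 and 1802) were highest in the WT control. Jon65Aiv and Mal-A1 were highest in the neuronal rescue. In bulk RNA, fewer cells of a type and less RNA per cell cannot be told apart. The part of fat body or gut content in the P450 differences was not tested.

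The P450 genes lie partly in tandem arrays, and neighbours did not move as a unit. In the order of protein-coding genes of the RefSeq Release 6 annotation, 41 of the 79 genes stood directly beside another member, in 14 runs of up to 9 genes. Of the 15 genes called in the mutant against the WT control, 7 lay in 4 such runs, and each of the 4 runs also held genes that were not called. In the run of 9 on chromosome arm 2R the order was Cyp6a22, Cyp6a17, Cyp6a23, Cyp6a19, Cyp6a9, Cyp6a20, Cyp6a21, Cyp6a8 and Cyp317a1. In the mutant against the WT control, Cyp6a17 was 2.83-fold higher and its direct neighbour Cyp6a23 3.18-fold lower. At the other end, the log2 ratio was 1.49 for Cyp6a8 and -0.50 for Cyp6a21. The remaining genes of the run lay between -0.55 for Cyp6a20 and 0.78 for Cyp6a22.

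**Figure D3:**
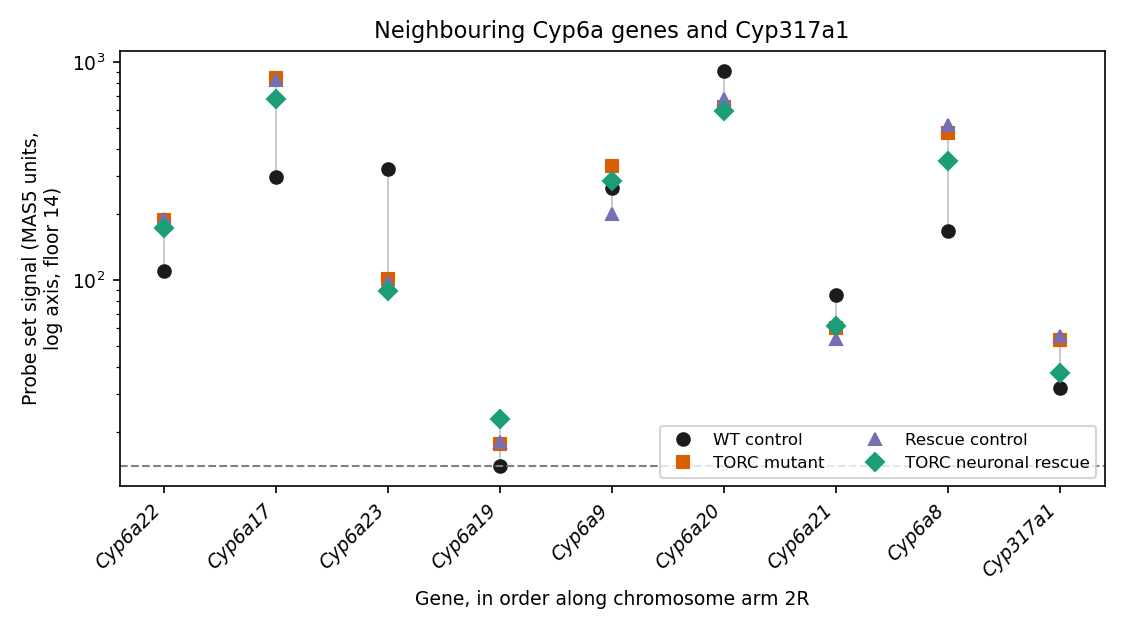
Probe set signals (MAS5 units, log axis, floor of 14) of the 9 neighbouring genes from Cyp6a22 to Cyp317a1 in their order along arm 2R, with 1 symbol per array. The WT control is the lowest array for Cyp6a17 (297) and the highest for its neighbour Cyp6a23 (322), while the other 3 arrays lie close together for both.

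In the pair on arm 3R, Cyp12a4 had a log2 ratio of 2.49 and Cyp12a5 one of -0.43. In the run of Cyp4p2, Cyp4p1 and Cyp4p3 on 2R the ratios were -0.09, -2.29 and 0.22, so Cyp4p1 was lower alone. In the run of Cyp4ac1, Cyp4ac2 and Cyp4ac3 on 2L they were -0.43, at least 1.70 and 1.19. Beside the not called Cyp6g1 on 2R, Cyp6g2 was below 14 on every array and Cyp6t3 on all but the rescue control. Whether probe sets of close paralogues bind each other's transcripts was not tested.

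The neuronal rescue was set beside its rescue control to ask how P450 transcripts differ once TORC is returned to neurons. Of the P450 genes, 3 of 79 were higher in the neuronal rescue, where 12.8% of all genes were, and 1 of 79 was lower, where 1.5% of all genes were. The higher genes were Cyp312a1, Cyp6a18 and Cyp49a1, and the lower one was Cyp6a2. The median log2 ratio was -0.12 over 68 measured members and -0.04 over all 9943 measured genes. Among genes above 14 on all 4 arrays, 1 of 59 members was higher and 1 lower, against 1.91% and 1.83% of 7480 genes. With this restriction the median log2 ratio was -0.13 over members and -0.14 over all genes. Quantile normalization gave 1 member higher and 11 lower, with 10.4% of all genes higher and 6.95% lower, so the balance of this comparison depended on the scaling.

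Cyp312a1 was at least 14.3-fold higher in the neuronal rescue, with signals of 1.1 and 200.3. Cyp6a18 was at least 2.17-fold higher, with a log2 ratio of 0.70 under quantile normalization, short of the call. Both genes were above the floor only where the testis and accessory gland markers were bright, and Cyp312a1 was 2.22-fold brighter in the neuronal rescue than in the WT control. The part of tissue makeup in these ratios was not tested. Cyp49a1 was 2.49-fold higher (15.2 and 37.8), but its log2 ratio was 0.42 with quantile normalization and 0.43 with the floor at 28. Cyp6a2 was 2.19-fold lower in the neuronal rescue (1230 and 562), yet still 3.86-fold above the WT control. Just short of the call were Cyp12c1, 1.87-fold higher in the neuronal rescue, and Cyp18a1, 1.86-fold lower by its brighter probe set.

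**Figure D4:**
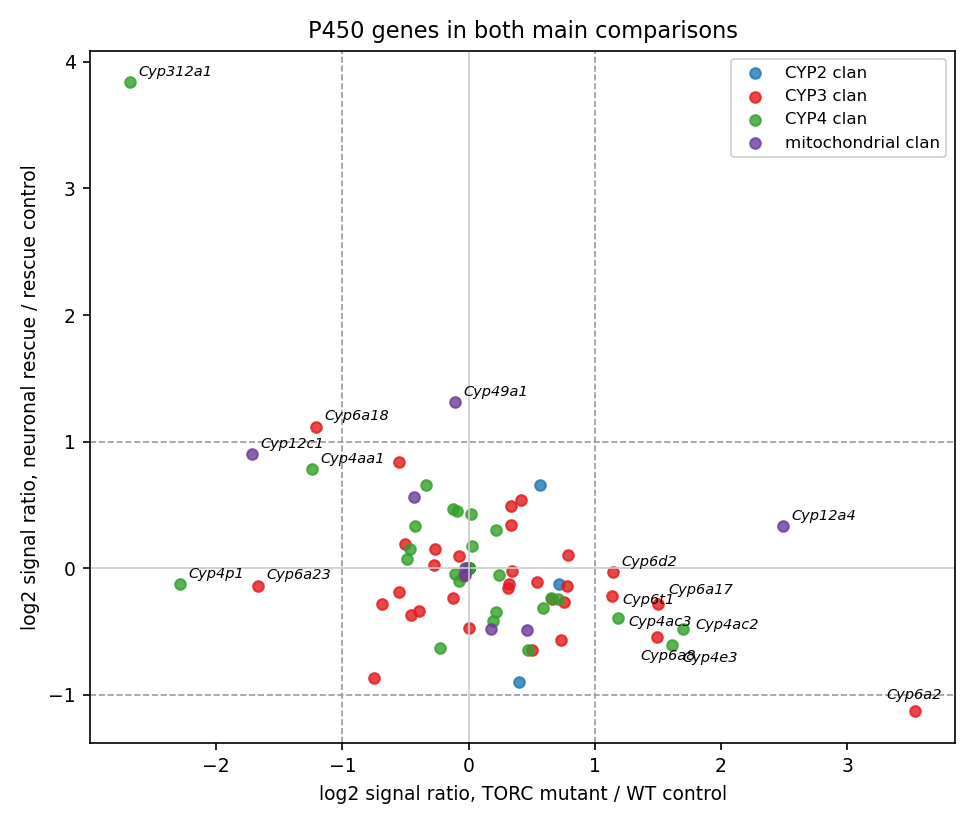
log2 ratio of the mutant over the WT control (horizontal) against that of the neuronal rescue over the rescue control (vertical) for the 79 P450 genes, coloured by clan, with dashed lines at 2-fold. Cyp312a1 and Cyp6a18 lie at the upper left (-2.69 and -1.21 across, 3.84 and 1.12 up), Cyp6a2 at the lower right (3.54 across and -1.13 up), and Cyp12a4, Cyp4p1 and Cyp6a23 lie near 0 on the vertical axis.

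These main comparisons share no array, so the genes called in the first could be followed into the second. Of the 9 P450 genes higher in the mutant, 8 had a log2 ratio below 0 in the neuronal rescue, with a median of -0.39. Among all 208 genes higher in the mutant, 85.6% were below 0 in the neuronal rescue, a share close to that of the P450 genes. Cyp12a4 was the exception, at 0.33. Of the 6 lower P450 genes, 4 (66.7%) were above 0 in the neuronal rescue (Cyp12c1, Cyp312a1, Cyp4aa1 and Cyp6a18), and the 6 had a median of 0.84. Among all 1381 lower genes the share was larger, 90.9%, with a median of 2.45. Cyp4p1 and Cyp6a23 were at -0.13 and -0.14. Called in opposite directions in both comparisons were 3 genes, Cyp6a2, Cyp6a18 and Cyp312a1. The share of all genes called in this way was not counted, so this number is not read as a trait of the family. Across the 59 members above 14 on all arrays the ratios of the comparisons correlated with r = -0.38, against r = -0.43 across 7480 genes. These are correlations across genes measured on the same arrays, and genes are not independent replicates.

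The remaining 4 pairings cross the split seen in the Bacillus transcripts and share arrays with the main comparisons, so their values are set side by side only. Between the mutant and the rescue control, the arrays with little Crtc signal, no P450 gene was called in either direction, where 0.81% of all genes were higher in the mutant and 1.83% lower. The widest P450 difference there was 1.87-fold, for Cyp4ac2. Against the WT control, the rescue control had 7 P450 genes higher (2.3% of all genes) and 6 lower (11.1%). Cyp6a2 was 8.45-fold higher in it, Cyp12a4 5.06-fold and Cyp9h1 2.13-fold, while Cyp4d20 (200.0, 142, 85.4 and 89.9 in the usual order) was 2.34-fold lower. The neuronal rescue also had 7 genes higher than the WT control (5.27%) and 3 lower (2.76%). They included Cyp12a4, 6.37-fold higher, Cyp304a1, at least 2.67-fold, and Cyp9c1, 2.05-fold, while Cyp4p1 was 4.69-fold lower. Against the mutant, the neuronal rescue had 4 genes higher (13.8%) and 2 lower (2.98%). The higher ones were Cyp312a1, Cyp12c1 (2.56-fold), Cyp4aa1 (2.30-fold) and Cyp6a18, and the lower ones Cyp6a2 (3.02-fold) and Cyp4ac2 (2.61-fold).

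Of 14 genes listed as electron donors or as hormone-synthesis genes under other symbols, 11 had a probe set, and 5 of these were above 14 on all arrays. None was called in a main comparison, but a gene at the floor on both arrays could not be. Of all genes, 1.74% were higher and 11.5% lower in the mutant, and 12.8% and 1.5% in the neuronal rescue. Cytochrome b5, which passes electrons to microsomal P450s, had 2642, 2959, 3035 and 3062 in the same order of arrays. The cytochrome b5-related gene Cyt-b5-r had 4175, 4747, 4406 and 4291. The mitochondrial ferredoxin gene Fdx1 had 179.6, 109, 79.2 and 151, a log2 ratio of -0.72 in the mutant and 0.93 in the neuronal rescue, short of the call. Between the rescue control and the WT control it was called, 2.27-fold lower in the rescue control. Fdx2 had 248, 250.0, 332 and 356. The ecdysone synthesis P450 genes phtm, sad, spo and spok were below 14 on every array, dib was at 15.1 in the rescue control alone, and shd, which makes the active hormone in target tissues, was between 6.7 and 17.8. GstE14, a glutathione transferase needed for ecdysteroid synthesis, had 235, 329, 287 and 249.

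Of 12 regulators of detoxification and hormone response, 1 was higher and 1 lower in the mutant against the WT control, where 1.74% of all genes were higher and 11.5% lower. None was called between the rescue control and the neuronal rescue. The ecdysone receptor gene EcR had 53.0 in WT control heads, 132 in mutant heads, 83.9 in rescue control heads and 54.5 in neuronal rescue heads. The Nrf2 homologue cnc, which drives detoxification genes including Cyp6a2, had 702, 145, 268 and 310.4, highest in the WT control, where Cyp6a2 was lowest. These are signals of the brighter of 2 cnc probe sets, and the other is not described. The part of cnc in the Cyp6a2 difference was not tested. The cnc inhibitor Keap1 had 42.7, 62.4, 68.5 and 47.8, and the xenobiotic nuclear receptor gene Hr96 had 145, 173, 153.5 and 134. Neither reached 2-fold in a main comparison.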

How the data were processed

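Per the submitters' processing notes, the authors summarised each probe set with MAS5, whose version is not given in the sources used here, and deposited linear intensity values. The 2% trimmed mean was 150.005 on every array, so the arrays were used as deposited, with no further scaling. An equal trimmed mean did not make the medians equal. Median probe set signals, in the usual order of arrays, were 36.2, 19.4, 20.2 and 36.85. Shares of probe sets above 14 were 63.0%, 53.3%, 54.6% and 62.9%. How far these gaps entered the calls of dim genes was not tested. The table held 18952 probe sets, 183 of them controls. Genes were named from the platform annotation: 13646 probe sets had 1 symbol, and the one with the highest mean log2 signal stood for each of 11981 genes. All 79 P450 genes matched RefSeq Release 6 by Entrez identifier and kept their symbol. A pair of probe sets naming a Cyp gene beside another gene (2 in all) was left unnamed. The 79 genes had 81 probe sets, and only Cyp12e1 and Cyp18a1 had more than 1.

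Signals below 14 were raised to 14 and log2 ratios taken, with a call at 2-fold. Groups came from sample titles. With 1 array per group, no p-value is given, and the number of arrays limits the precision. The members, gene lists and comparisons were chosen with earlier results of these data known. Every member could be named, with signals on all arrays for called and mitochondrial ones. Of 14 partner genes, 11 were measured; Cpr and dare were not analysed here. Calling was run on simulated data with effects only in genes well above the floor and noise smaller than the probe set SD. That run does not cover dim genes or bounds. Alternatives were quantile normalization, median centring, floors of 7, 28 and 50, the mean over probe sets, only genes above the floor on all 4 arrays, and 1.5-fold and 3-fold thresholds. No coordinates or sequences are given. Python 3.11.15, numpy 2.4.6, pandas 2.3.3 and matplotlib 3.10.9 were used.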

Additional observations from a re-analysis of the deposited data

How the results depend on the processing

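No paired analysis was possible because each group had 1 array, and no array could be left out for the same reason. For the mutant against the WT control (9 genes higher, 6 lower), quantile normalization gave 14 higher and 4 lower, the 1.5-fold threshold 18 higher and 8 lower, the 3-fold threshold 4 and 4, and the floor of 50 gave 7 and 3. For neuronal rescue over rescue control (3 higher, 1 lower), quantile normalization gave 1 higher and 11 lower, the floor of 7 gave 5 and 2, and the floors of 28 and 50 and the restriction to genes above the floor on all 4 arrays each gave 1 higher. The 1.5-fold threshold gave 8 and 7, and the 3-fold threshold 1 and 0. Higher floors and the restriction leave out dim genes by construction; the cause of the shift under quantile normalization was not tested. Quantile normalization took the higher share of P450 calls from 60% to 77.8% in the mutant comparison and from 75% to 8.3% in the rescue comparison, while that share among all called genes went from 13.1% to 35.7% and from 89.5% to 59.8%. It moved the median of all measured genes from -0.03 to 0.12 and from -0.04 to -0.18, and median centring moved the latter to 0.07. Of 133 combinations of a called P450 ratio with a setting of the scaling, floor or probe sets, 124 gave a value and 9 did not, because the gene then lay at the floor or was left out. None of the 124 changed sign. By size, 104 moved by less than the robust SD of a single probe set, and 20 moved further. Part of this was fixed in advance. Every called gene had 1 probe set, so the mean over probe sets left all 19 ratios unchanged. Median centring multiplied each array by a constant, which shifts all ratios above the floor alike, and all 19 stayed within the SD. The restriction to genes above the floor on all 4 arrays left its 14 remaining ratios unchanged, and a change of floor cannot reverse a sign. Quantile normalization, which can, moved 5 of 19 ratios beyond that SD and reversed none. Signals near 14 limit what can be said of dim genes, and 20 of the 79 members lay below it on at least 1 array.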
